A study of Mus musculus with 50 samples.

Results

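The expression difference between mice with and without activated Gfral neurons was compared between 6 h and 1 h after the stimulus in perigonadal white adipose tissue (pgWAT), the fat pad around the testis. The libraries were all 30 of that tissue among the 50 of the series. All mice were males carrying hM3Dq, an engineered receptor coupled to Gq that clozapine N-oxide (CNO) activates. TG mice were positive for a Cre recombinase under control of Gfral, which limits the receptor's action to cells that have expressed Gfral, and WT mice were Cre-negative. CNO was given at 1 mg/kg to TG and WT alike, and a group without it was not analysed here. The groups were 6 TG and 6 WT libraries at 6 h and 9 TG and 9 WT libraries at 1 h. The labels do not say that each library is 1 animal, so a p-value speaks only of how these libraries vary. Time coincided with the library kit, so changes with time and changes with the kit cannot be told apart, in the main effect of time or in its interaction with genotype. The result reported is the genotype change that differs between the times, written as the log2 change of TG over WT at 6 h minus that at 1 h.

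GFRAL is the receptor of GDF15, a hormone of cell stress and illness, and is found in neurons of the hindbrain that reduce food intake and respond to nausea. Fat receives such signals only indirectly, through sympathetic nerves and through circulating hormones such as glucocorticoids, insulin and catecholamines. Glucocorticoids act through a nuclear receptor that induces genes such as Fkbp5 and Tsc22d3. Low insulin releases FOXO transcription factors, whose targets include genes of nutrient stress, while catecholamines act on fat cells through beta-adrenergic receptors and cyclic AMP. Immediate early genes such as Egr1 respond to many of these stimuli without new protein synthesis.

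Reads came from the 3′ ends of transcripts, and levels are in CPM (counts relative to the library total, after scaling between libraries). Gene totals were 9150496 to 12883462 counts per library at 6 h and 976610 to 4852560 at 1 h, so a level of 3 counts, up to which a gene without a count may lie, stood for 0.233 to 0.328 CPM at 6 h and 0.618 to 3.07 CPM at 1 h, for counting error only. The median standard error of a gene's log2 change was 0.119 at 6 h and 0.163 at 1 h. The adipocyte markers Adipoq and Lep identified the tissue, with medians of 6004 and 1697 CPM in TG and 6315 and 1184 CPM in WT at 6 h. On the first principal component, which held 47.9% of the variance, 6 h libraries lay between 58.5 and 67.7 and 1 h libraries between -50 and -31.1. Transcripts of other organs marked some libraries: the summed level of 8 liver transcripts reached 1722 CPM in 1 TG library at 6 h, where the other TG and WT libraries reached at most 96.2 CPM, and 8673 CPM in TG and 2089 CPM in WT at 1 h. In 10 libraries, 1 at 6 h and 9 at 1 h, the liver or the epididymal duct list summed to over 5 times the median of the time, and key counts are also given without them. Gfral itself had 5 counts in 2 of 6 TG libraries and 0 in WT at 6 h, and 1 count in TG and 0 in WT at 1 h.

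Many genes differed between the genotypes at 6 h, and few were called at 1 h. Of 13022 genes tested, 1971 differed between TG and WT at 6 h (15.1%), of which 958 were higher in TG (7.36% of those tested) and 1013 lower (7.78%). At 1 h 7 genes did (0.0538%), 5 higher and 2 lower in TG. The tests were edgeR's quasi-likelihood tests with Benjamini-Hochberg adjustment over all genes, at an adjusted p of 0.05. At an unadjusted p of 0.05 there were 595 genes at 1 h. The groups did not overlap for 1050 genes at 6 h (8.06%) and for 4 genes at 1 h (0.0307%). Those 4, picked out after their values were seen, were Txnl1, Wdr7, Gm44829 and mt-Tt, a mitochondrial transfer RNA.

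The genotype change differed between 6 h and 1 h for 548 genes (4.21%), with a difference above 0 for 244 (1.87%) and below 0 for 304 (2.33%). From the 3 tests together, 6 genes were sustained, being called at both times in the same direction, and 1 was early-only, being called at 1 h, not at 6 h, and different between the times. Late-only genes, called at 6 h, not at 1 h, and different between the times, numbered 511, with 227 higher and 284 lower in TG. With edgeR no gene was called in opposite directions at the 2 times, and with DESeq2 1 was, Tnrc18. A further 1454 genes were called at 6 h without a called difference from 1 h, 727 in each direction, and 34 had a called difference while neither time passed on its own. Without the 10 libraries with transcripts of other organs the difference was called for 319 genes, 294 were late-only, 1 was sustained and none was early-only. That comparison kept only 3 WT libraries at 1 h. Fewer cells of a type and less RNA per cell cannot be told apart in these tissue samples.

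**Figure D1:**
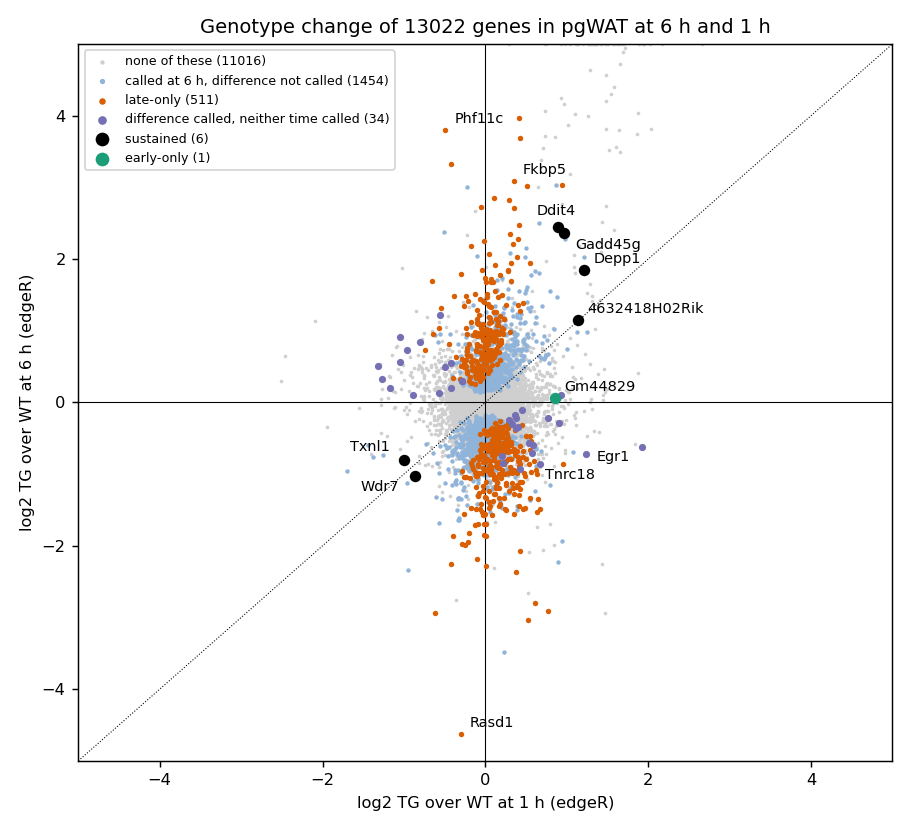
The log2 change of TG over WT at 6 h (vertical axis) is plotted against that at 1 h (horizontal axis) for 13022 genes, coloured by class, with equal changes on the dotted line and values beyond 5 drawn at the edge. Late-only genes (511) lie along the vertical axis, and the 6 sustained genes lie near or above the dotted line in size.

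The 4 sustained genes that were higher in TG are Ddit4, Gadd45g, Depp1 and 4632418H02Rik. Ddit4 (chr10:59949669-59951834 on GRCm38, minus strand) encodes REDD1, an inhibitor of the growth kinase complex mTORC1 that glucocorticoids, energy stress and hypoxia induce. Gadd45g (chr13:51846678-51848468, plus strand) encodes a stress sensor of the Gadd45 family. Depp1 (chr6:116650609-116652794, plus strand) is a FOXO target linked to autophagy. 4632418H02Rik (chr9:122127294-122130014, plus strand) is an unclassified transcript inside the gene of the kinase Snrk on the same strand.

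Ddit4 ranged from 251 to 327 CPM in TG (median 293) and from 33.2 to 101 CPM in WT (median 46.8) at 6 h. At 1 h it ranged from 132 to 232 CPM in TG (median 180) and from 76.3 to 142 CPM in WT (median 92.2). The groups were apart at 6 h and overlapped at 1 h, where all 9 TG libraries lay above the WT mean. The log2 change was 2.44 ± 0.23 (SE) at 6 h and 0.89 ± 0.12 at 1 h, with adjusted p-values of 2.92e-05 and 0.00121, and the difference of 1.55 ± 0.24 passed its own test (adjusted p = 7.97e-05). The change was larger at 6 h.

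Gadd45g ranged from 142 to 322 CPM in TG (median 231) and from 26.2 to 80.5 CPM in WT (median 39.8) at 6 h. At 1 h the range was 50 to 117 CPM in TG (median 64.3) and 20.2 to 57 CPM in WT (median 33.6). The groups overlapped only at 1 h. The log2 change was 2.36 ± 0.30 at 6 h and 0.97 ± 0.18 at 1 h (adjusted p = 0.000277 and 0.0441), and the difference of 1.40 ± 0.32 was called (adjusted p = 0.00824).

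Depp1 ranged from 210 to 358 CPM in TG (median 323) and from 29.6 to 137 CPM in WT (median 98.1) at 6 h, and from 93.5 to 250 CPM in TG (median 193) and 39.8 to 109 CPM in WT (median 71.9) at 1 h. Its log2 change was 1.84 ± 0.36 at 6 h and 1.22 ± 0.22 at 1 h (adjusted p = 0.00521 and 0.0461). The difference of 0.63 was not called, and its 95% interval was -0.18 to 1.45. 4632418H02Rik had medians of 31.9 CPM in TG and 13.2 CPM in WT at 6 h, and of 22.9 CPM in TG and 11.1 CPM in WT at 1 h. Its log2 changes of 1.15 and 1.14 differed by 0.02, with an interval of -0.56 to 0.59. Snrk, the gene around it, had a log2 change of 1.19 at 6 h and 0.05 at 1 h and was late-only (adjusted p of the difference 9.54e-06), and reads of the overlapping annotations cannot be separated here.

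The 2 sustained genes that were lower in TG, Txnl1 and Wdr7, are neighbours. Txnl1 (chr18:63661094-63708801) encodes a thioredoxin-like protein that associates with the proteasome, and Wdr7 (chr18:63708685-63989776) a partner of the vesicular proton pump. They lie on opposite strands with overlapping starts. Txnl1 ranged from 37.9 to 45.6 CPM in TG and from 67.1 to 74.1 CPM in WT at 6 h, and from 42.7 to 57.7 CPM in TG and from 92.9 to 108 CPM in WT at 1 h. The groups were fully apart at both times. Its change was -0.81 ± 0.06 at 6 h and -1.0 ± 0.08 at 1 h (adjusted p = 3.82e-07 and 7.25e-08), and the interval of the difference, -0.01 to 0.39, held 0. Wdr7 ranged from 9.28 to 14.1 CPM in TG and from 21.1 to 25.5 CPM in WT at 6 h, and from 17.7 to 26.1 CPM in TG and 30.3 to 44.5 CPM in WT at 1 h. Its log2 change was -1.03 ± 0.11 at 6 h and -0.87 ± 0.10 at 1 h, with a difference of -0.16 (95% interval -0.46 to 0.14). The other tested genes within 500 kb, Piezo2 and Fech, were called at neither time.

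Not all 1 h calls of sustained genes rested equally on the libraries. Ddit4, Txnl1 and Wdr7 were sustained in all 30 fits that each left out 1 library, 4632418H02Rik in 23, and Gadd45g and Depp1 in 17 each. In those fits the 1 h log2 change of Gadd45g stayed between 0.84 and 1.08 and that of Depp1 between 1.14 and 1.30, while the adjusted p reached 0.114 and 0.126. The class of Gadd45g and that of Depp1 each ended without TG replicate 1, 2, 3, 5, 7 or 9 or WT replicate 1, 2, 4, 5, 7 or 9 of the 1 h set, that of Gadd45g also without WT replicate 6 and that of Depp1 also without WT replicate 8. The class of 4632418H02Rik ended without TG replicate 2, 3 or 7 or WT replicate 1, 2, 4 or 7 of the 1 h set. Without the 10 libraries with transcripts of other organs the 1 h changes were 0.91 for Ddit4, 1.40 for Gadd45g, 1.43 for Depp1, 1.35 for 4632418H02Rik, -0.97 for Txnl1 and -0.95 for Wdr7. Only Txnl1 then passed at 1 h (adjusted p = 0.0407). The difference then had an adjusted p of 0.0184 for Ddit4 and of 0.466 for Gadd45g.

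Quadriceps muscle of clamped TG and WT mice gives the same genes in 20 libraries that the classes did not use (164 of 8070 genes called, 2.03%). The sample titles give no time after CNO for muscle and name a clamp only there. Of the 5 sustained genes tested there, 4 were called in the direction seen in fat, among them the neighbours Txnl1 and Wdr7 with their overlapping starts. Ddit4 ranged from 474 to 665 CPM in TG and from 275 to 581 CPM in WT (n = 10 each), with a log2 change of 0.49 ± 0.10 (adjusted p = 0.00395). Gadd45g changed by 0.46 ± 0.12 (adjusted p = 0.0313), Txnl1 by -0.90 ± 0.08 (adjusted p = 4.21e-10) and Wdr7 by -1.04 ± 0.14 (adjusted p = 4.83e-06). Depp1 had medians of 50.4 CPM in TG and 57 CPM in WT and was not called (log2 change -0.25 ± 0.18, adjusted p = 0.698). 4632418H02Rik and the early-only gene were below the filter in muscle.

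**Figure D2:**
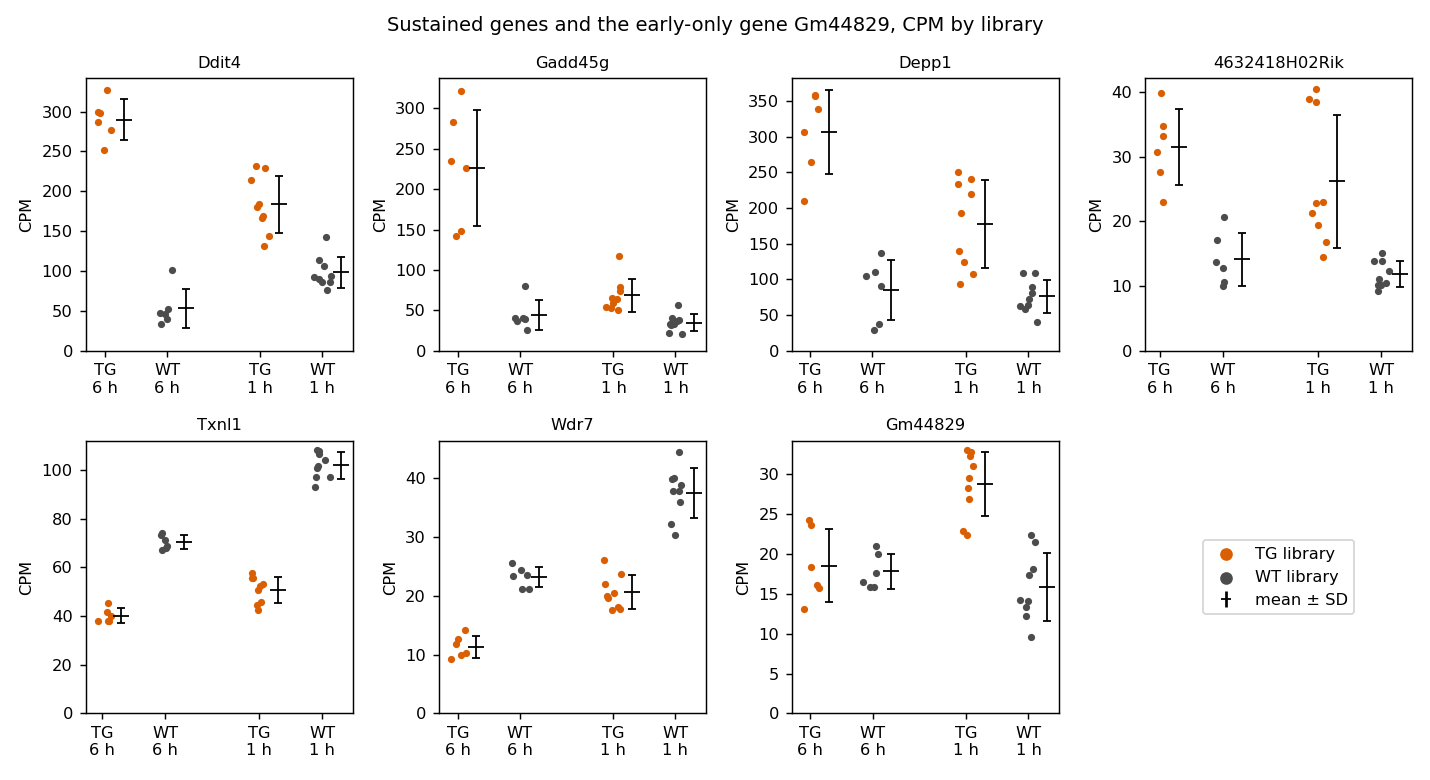
CPM of the 6 sustained genes and of the early-only gene Gm44829 in each library (TG orange, WT grey, 6 h left of 1 h), with mean and SD as bars. TG libraries are higher at both times for Ddit4, Gadd45g, Depp1 and 4632418H02Rik and lower for Txnl1 and Wdr7, and Gm44829 is higher in TG only at 1 h.

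The only early-only gene was Gm44829 (chr7:59318631-59321823, plus strand), an unclassified transcript inside Snhg14 but on the opposite strand. Snhg14 is the long RNA gene that runs antisense to the imprinted Ube3a. Gm44829 lies 7095 bases from Ube3a, on the same strand as Ube3a. It ranged from 13.1 to 24.3 CPM in TG and from 15.9 to 21.1 CPM in WT at 6 h, against 22.4 to 33 CPM in TG and 9.53 to 22.4 CPM in WT at 1 h. At 1 h the highest WT and the lowest TG library met without crossing, and at 6 h the TG range enclosed the WT range. The log2 change was 0.05 ± 0.15 at 6 h and 0.86 ± 0.15 at 1 h (adjusted p = 0.844 and 0.0207), and the difference was -0.80 ± 0.22 (adjusted p = 0.0235). Snhg14 had log2 changes of -0.21 at 6 h and 0.22 at 1 h, and Ube3a had -0.06 and 0.02, none of them called. The class held in 21 of the 30 fits with 1 library left out. Of the 9 libraries that ended it, 1 was TG replicate 6 of the 6 h set and 8 were of the 1 h set (TG replicates 1, 2, 3, 7 and 9 and WT replicates 1, 2 and 7). Its difference was -0.67 without the 10 libraries with transcripts of other organs and was then not called.

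Genes with a called difference whose change was larger in size at 1 h than at 6 h numbered 30, with 18 higher and 12 lower in TG at 1 h. Of these, Gm44829 alone passed at 1 h, so for the others the difference was called and the 1 h change itself was not. Fgf9, a fibroblast growth factor, had medians of 6.9 CPM in TG and 13.3 CPM in WT at 6 h, and of 6.63 CPM in TG and 3.07 CPM in WT at 1 h. Its log2 change was -0.86 ± 0.27 at 6 h and 0.95 ± 0.28 at 1 h (adjusted p of the difference 0.0036). Sox4, a transcription factor of progenitor cells, had log2 changes of -0.46 and 0.50, and Ddx60, an RNA helicase of antiviral defence, had -0.53 and 0.56, at 6 h and 1 h. Itpr1, the calcium channel that opens in response to Gq signalling, had log2 changes of -0.22 and 0.38, Lpar4, a receptor of lysophosphatidic acid, had -0.36 and 0.37, and Limch1, a regulator of myosin, had -0.30 and 0.32 at 6 h and 1 h. Plk1, a kinase of mitosis, ran the other way, with 0.56 at 6 h and -1.05 at 1 h, and so did the RNase P subunit gene Rpp21, with 0.34 and -0.39. Of these 8 genes, the differences of Lpar4 and Plk1 were called without the 10 libraries with transcripts of other organs (adjusted p = 0.0344 and 0.0198), while those of the other 6 were not.

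The immediate early genes showed no common direction at 6 h. Of 23 tested, the difference was called above 0 for 1 and below 0 for 2 (against 1.87% and 2.33% of all genes). The median log2 change was -0.10 at 6 h and 0.18 at 1 h, against 0.00981 and 0.0126 over all genes. Of the 23, 11 were above 0 at 6 h and 18 at 1 h, where 53.5% of all genes were at 1 h. At an unadjusted p of 0.05 at 1 h, 5 were higher in TG and none lower, against 2.28% and 2.29% of all genes. Egr1, a zinc finger factor that many stimuli induce within minutes, ranged from 10.6 to 65 CPM in TG (median 12.1) and from 25 to 52.4 CPM in WT (median 38.2) at 6 h. At 1 h it ranged from 78.7 to 217 CPM in TG (median 116) and from 27.3 to 122 CPM in WT (median 50.3). In TG 1 library at 6 h lay far above the others, and at 1 h all 9 TG libraries lay above the WT mean. On the log2 scale its change was -0.72 ± 0.50 at 6 h and 1.23 ± 0.26 at 1 h, neither called by edgeR (adjusted p = 0.4 and 0.13), while the difference of -1.96 ± 0.53 was (adjusted p = 0.029). DESeq2 called Egr1 at 1 h (adjusted p = 0.00094) and classed it early-only. Its 1 h change was 0.68 without the 10 libraries with transcripts of other organs. Ier2 had changes of -0.29 and 0.91 at 6 h and 1 h and a called difference of -1.21 (adjusted p = 0.0465). Fosl2, a partner of Jun, was late-only, with 1.11 and 0.04. No member had a called difference without the 10 libraries with transcripts of other organs, where the list's medians were -0.05 at 6 h and 0.04 at 1 h.

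Among late-only genes, glucocorticoid-induced genes were the group with the most called differences. Of 24 tested, 21 were higher in TG at 6 h and none lower (against 7.36% and 7.78% of all genes), and 1 was called at 1 h, Ddit4. The difference was called above 0 for 13 and below 0 for none (against 1.87% and 2.33% of all genes), and 12 of the 13 were late-only. The median log2 change was 1.32 at 6 h and 0.24 at 1 h. At each time 22 of 24 were above 0, against 6728 of all 13022 genes at 6 h and 6968 at 1 h. At an unadjusted p of 0.05 at 1 h, 5 were higher in TG and none lower, against 2.28% and 2.29% of all genes. Fkbp5, a co-chaperone that restrains the glucocorticoid receptor, ranged from 412 to 598 CPM in TG (median 520) and from 47.4 to 87 CPM in WT (median 57.7) at 6 h. At 1 h it ranged from 43.2 to 105 CPM in TG (median 74.8) and from 43.7 to 97.6 CPM in WT (median 52.6). The groups were far apart at 6 h and overlapped at 1 h. Fkbp5 had log2 changes of 3.08 ± 0.14 at 6 h and 0.35 ± 0.17 at 1 h, and the difference 2.73 ± 0.24 (adjusted p = 3.51e-09). Tsc22d3 (GILZ, an anti-inflammatory mediator) had log2 changes of 1.68 and 0.07, and Mertk, a receptor for apoptotic cells, had 1.37 and 0.03, at 6 h and 1 h. Without the 10 libraries with transcripts of other organs the difference was called for 10 members, all above 0, and the medians were 1.30 and 0.17.

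Late-only genes higher in TG also came from outside that list. Hipk1, a nuclear kinase, ranged from 480 to 595 CPM in TG and from 143 to 193 CPM in WT at 6 h, and from 240 to 394 CPM in TG and 260 to 356 CPM in WT at 1 h. The 6 h groups were apart and the 1 h groups covered the same range, with log2 changes of 1.72 ± 0.08 and 0.07 ± 0.09. Its difference had the smallest p of all late-only genes (1.65 ± 0.13, adjusted p = 4.73e-10). Rprml, a relative of the cell cycle inhibitor reprimo, had medians of 137 CPM in TG and 29.6 CPM in WT at 6 h, and of 21.8 CPM in TG and 18.2 CPM in WT at 1 h (difference 2.27 ± 0.20). Phf11c, a PHD finger gene, had medians of 40.9 CPM in TG and 3 CPM in WT at 6 h, against 1.57 CPM in TG and 2.17 CPM in WT at 1 h, where it was near the counting limit. Its difference was 4.29 ± 0.38 (adjusted p = 3.31e-09), and Phf11c has near-identical relatives beside it among which reads may be split. Ccdc71l, Ranbp9 and Fam129b had log2 changes of 1.44, 1.74 and 1.68 at 6 h and of -0.07, 0.00 and 0.01 at 1 h. All 8 late-only genes named by rule in this direction kept their class without the 10 libraries with transcripts of other organs.

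Genes of FOXO signalling and nutrient stress followed the same time course in part. Of 22 tested, 15 were higher and 1 lower in TG at 6 h (against 7.36% and 7.78% of all genes), and the 2 called at 1 h were Ddit4 and Depp1. The difference was called above 0 for 5 and below 0 for 1 (against 1.87% and 2.33% of all genes), with medians of 0.58 at 6 h and 0.07 at 1 h. Foxo1, the transcription factor itself, ranged from 223 to 361 CPM in TG and from 126 to 163 CPM in WT at 6 h, against 159 to 219 CPM in TG and 147 to 219 CPM in WT at 1 h. Its log2 change was 1.00 ± 0.11 at 6 h and 0.04 ± 0.09 at 1 h (adjusted p of the difference 3.11e-05). Trp53inp1, a stress gene of autophagy and p53 signalling, had log2 changes of 1.78 and 0.18 at 6 h and 1 h. Ddit4 and Klf15 stand in this and in the glucocorticoid-induced list. Of the 12 Gadd45 and p53-linked genes, 4 were higher and 2 lower in TG at 6 h (against 7.36% and 7.78% of all genes). The difference was called above 0 for 3 and below 0 for 1 (against 1.87% and 2.33% of all genes). Cdkn1a, the cell cycle inhibitor p21, was late-only and higher (2.07 and 0.04 at 6 h and 1 h). Gadd45a was late-only and lower (-1.54 and -0.04), opposite to its paralog Gadd45g at 6 h.

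Late-only genes lower in TG held receptors and regulators of lipolysis and insulin signalling. Of 19 genes of lipolysis and the lipid droplet, 5 were lower and 1 higher at 6 h (against 7.78% and 7.36% of all genes), and 3 were late-only and lower. The list as a whole did not shift, with medians of -0.01 at 6 h and -0.04 at 1 h. Of 19 difference estimates 10 were above 0, against 6563 of 13022 over all genes. Adrb3, the main beta-adrenergic receptor of mouse fat cells, ranged from 87.5 to 286 CPM in TG (median 170) and from 354 to 1239 CPM in WT (median 787) at 6 h. At 1 h it ranged from 352 to 798 CPM in TG (median 644) and from 198 to 1052 CPM in WT (median 657). The log2 change was -2.19 ± 0.32 at 6 h and -0.11 ± 0.24 at 1 h, with groups apart only at 6 h (adjusted p of the difference 0.00131). Hcar1, the lactate receptor that restrains lipolysis, had log2 changes of -1.95 and -0.22, and G0s2, an inhibitor of the lipase ATGL, had -1.48 and -0.17 at 6 h and 1 h. The lipase genes Pnpla2 and Lipe and the droplet coat gene Plin1 were called at neither time. Of 20 insulin signalling genes the difference was called below 0 for 3 and above 0 for 1 (against 2.33% and 1.87% of all genes). Their medians were -0.175 at 6 h and 0.03 at 1 h. The insulin receptor substrate genes Irs2 and Irs3 had log2 changes of -0.99 and -1.71 at 6 h and of 0.05 and -0.13 at 1 h. The third below 0 was Irs1, named after its values were seen, with -1.11 and 0.15, and Foxo1 was the gene above 0.

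Of the 8 late-only lower genes with the smallest p, Rasd1, a Ras-like protein induced by dexamethasone in pituitary cells, ranged from 1.98 to 11.1 CPM in TG (median 6.2) and from 122 to 191 CPM in WT (median 157) at 6 h. At 1 h it ranged from 5.65 to 29.1 CPM in TG (median 14.1) and from 3.22 to 36.7 CPM in WT (median 17). WT at 6 h stood apart from the other 3 groups, which lay close together. Rasd1 had log2 changes of -4.63 ± 0.31 at 6 h and -0.30 ± 0.40 at 1 h (adjusted p of the difference 9.66e-06). Bhlhe40, a repressor of the clock, had medians of 13.6 CPM in TG and 51.7 CPM in WT at 6 h, and of 33.8 CPM in TG and 31 CPM in WT at 1 h (difference -1.88 ± 0.26). Both stayed late-only without the 10 libraries with transcripts of other organs, where the 1 h change was -1.11 for Rasd1 (unadjusted p = 0.000365) and -0.52 for Bhlhe40 (unadjusted p = 0.0201). Hoxc4 and Hoxc6, position genes of the body axis, had log2 changes of -1.20 and -1.11 at 6 h and of 0.13 and 0.00 at 1 h. The difference estimate was below 0 for all 10 Hox genes tested, called for these 2. Over all 13022 genes, 6563 difference estimates were above 0, and 2.33% of genes were called below 0. Bahcc1, Dmrt2 and Mtss1 had log2 changes of -2.36, -1.44 and -0.62 at 6 h and of 0.38, 0.05 and 0.11 at 1 h. Tnrc18 was the gene among them whose 1 h interval lay above 0, with medians of 34.6 CPM in TG and 60.7 CPM in WT at 6 h and of 41.8 CPM in TG and 27.2 CPM in WT at 1 h. Its changes were -0.82 ± 0.09 and 0.60 ± 0.13, and that at 1 h was not called by edgeR (adjusted p = 0.114) but was by DESeq2 (adjusted p = 0.00704), and the difference was -1.42 ± 0.17 (adjusted p = 1.18e-06).

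**Figure D3:**
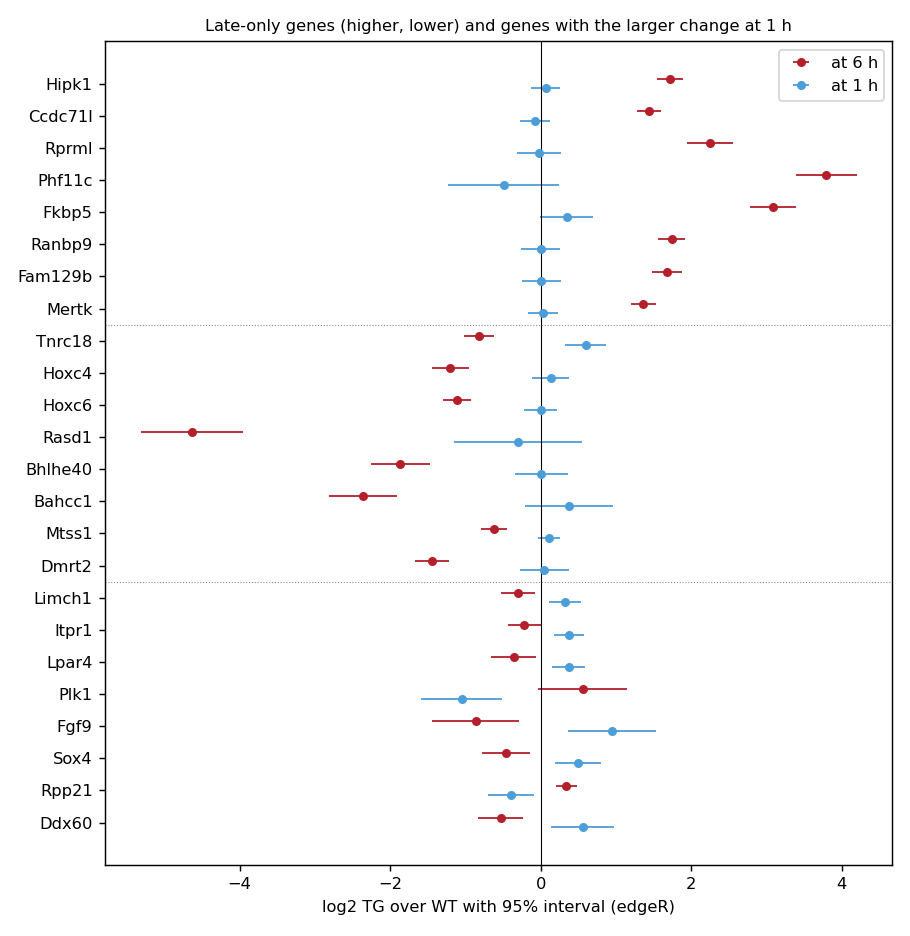
The log2 change of TG over WT with its 95% interval at 6 h (red) and 1 h (blue) is shown for the 8 late-only higher genes, the 8 late-only lower genes and the 8 genes with the larger change at 1 h, separated by dotted lines. The 1 h intervals of the upper 16 genes hold 0 for all but Tnrc18, and the lowest block has estimates of opposite sign at the 2 times.

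The interferon response list was lower at 6 h and not at 1 h. Of 20 genes, 10 were lower and none higher in TG at 6 h (against 7.78% and 7.36% of all genes), and none was called at 1 h. The difference was called below 0 for 5 and above 0 for none (against 2.33% and 1.87% of all genes). The median log2 change was -0.57 at 6 h and 0.17 at 1 h, and 1 gene was above 0 at 6 h and 16 at 1 h. Cd274, which encodes the checkpoint ligand PD-L1, ranged from 8.32 to 12.6 CPM in TG and from 25.6 to 43.4 CPM in WT at 6 h, and from 7.69 to 13.3 CPM in TG and from 5.26 to 25.2 CPM in WT at 1 h. The groups were apart at 6 h only, with log2 changes of -1.70 ± 0.14 and -0.02 ± 0.23. Irf1, a transcription factor of the response, had log2 changes of -0.96 and -0.28, and the GTPase gene Gbp3 had -0.85 and 0.21 at 6 h and 1 h. The difference was called below 0 for 3 without the 10 libraries with transcripts of other organs, where the medians were -0.54 and 0.15. Cd274 was then not among them (adjusted p = 0.077), with a 1 h change of -0.55.

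Other programmes are read against the 4.21% of all genes with a called difference. Of 10 cyclic AMP and CREB targets, the phosphodiesterase gene Pde4b and Irs2 had differences below 0 and Rgs2, a regulator of G protein signalling, above 0, with list medians of -0.16 at 6 h and 0.29 at 1 h. The clock list had 1 above 0 (Per1, 0.91 at 6 h and 0.04 at 1 h) and 2 below 0 (Bhlhe40 and Bhlhe41) among 18 genes. Of 14 extracellular matrix genes, the basement membrane collagen genes Col4a1 and Col4a2 were late-only and higher (0.59 and 0.51 at 6 h, 0.02 and -0.05 at 1 h). Of 23 genes of glucose uptake and glycolysis, Pfkfb3 and Hk2, which drive glycolysis, were late-only and lower, and Pdk2 was late-only and higher. Without the 10 libraries with transcripts of other organs, the difference was no longer called for Pde4b (adjusted p = 0.335), Rgs2 (0.0683), Per1 (0.219), Bhlhe41 (0.157), Col4a1 (0.0532), Col4a2 (0.111), Pfkfb3 (0.0791) and Pdk2 (0.42), and it was for Irs2, Bhlhe40 and Hk2. Slc2a4, the insulin-responsive glucose transporter GLUT4, ranged from 140 to 201 CPM in TG and from 141 to 173 CPM in WT at 6 h, and from 148 to 264 CPM in TG and from 121 to 211 CPM in WT at 1 h. Its groups overlapped at both times, and its difference of 0.00 had a 95% interval of -0.35 to 0.36. The adipokine genes Lep and Adipoq had differences of 0.62 (interval -0.05 to 1.29) and -0.15 (interval -0.55 to 0.24), neither called. Of 13 adipokine genes tested, the difference was called above 0 for 1 and below 0 for 2. Nampt was late-only and higher (1.12 and 0.06 at 6 h and 1 h). Apln and Nrg4 were late-only and lower (-1.82 and -0.95 at 6 h, -0.20 and 0.01 at 1 h). Without the 10 libraries with transcripts of other organs the difference stayed called for Nampt but not for Apln (adjusted p = 0.103) or Nrg4 (0.12). The cold-inducible genes Cirbp and Rbm3 were higher in TG at 6 h (0.77 and 0.44) and had 0.28 and -0.21 at 1 h, with differences that were not called (adjusted p = 0.272 and 0.111). Of the 13 cold-inducible and splicing genes, 1 had a called difference, Luc7l3. It was late-only and lower (-0.45 and 0.01 at 6 h and 1 h, adjusted p of the difference 0.0229). Luc7l3 lost that class without the 10 libraries with transcripts of other organs (adjusted p = 0.0897). For Cirbp the 1 h change was 0.64 and the difference 0.12 without the 10 libraries with transcripts of other organs, and Rbm3 was then not called at 6 h (adjusted p = 0.0692). The 19 oxidative phosphorylation genes and the 20 genes of the unfolded protein and integrated stress response held no called difference, beside the 4.21% of all genes.

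**Figure D4:**
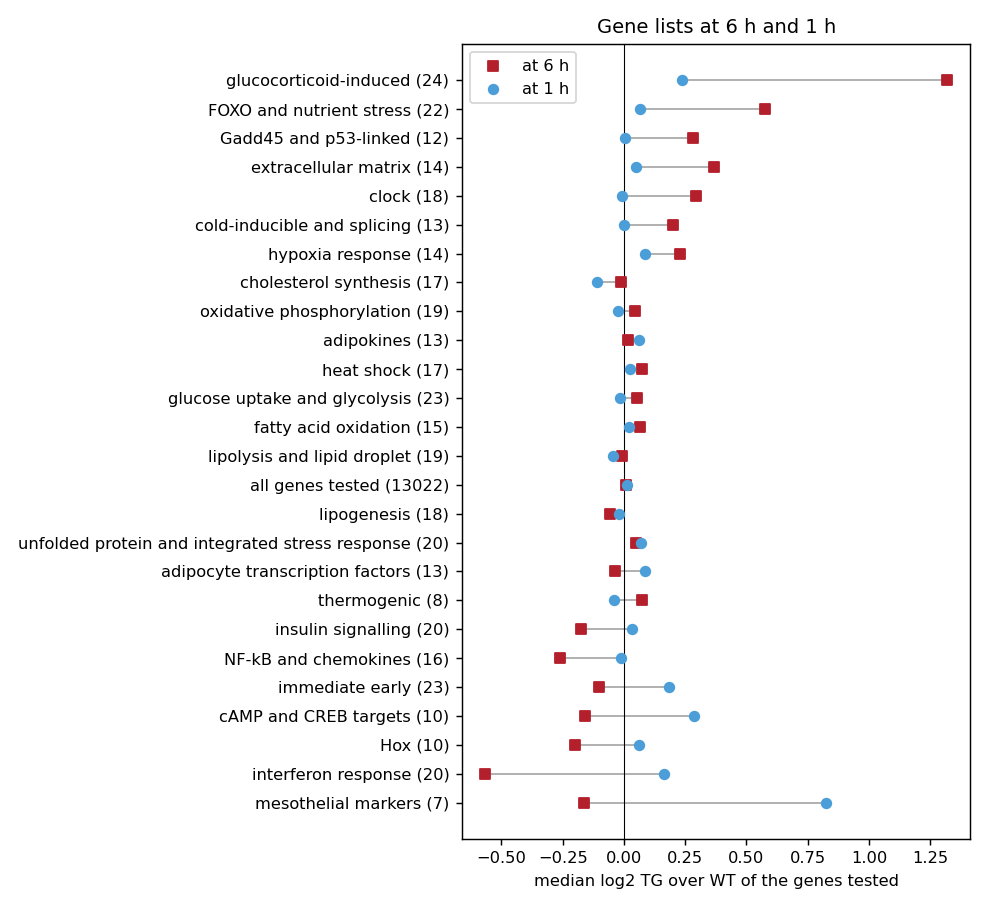
Median log2 change of TG over WT at 6 h (red squares) and 1 h (blue circles) for the 24 programme lists, the mesothelial markers and all genes, ordered by the median difference, with the number of genes tested in parentheses. Of the lists drawn, the glucocorticoid-induced list lies farthest right at 6 h (1.32) and the interferon list farthest left (-0.57), while the mesothelial markers lie farthest right at 1 h (0.83).

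Cell type markers were read over the same tests. Over all 13022 genes, 6728 estimates were above 0 at 6 h and 6968 at 1 h. At 6 h 7.36% of all genes were called higher and 7.78% lower, and 4.21% had a called difference. The 7 mesothelial markers tested had a median of -0.16 at 6 h and 0.83 at 1 h, all 7 were above 0 at 1 h, and no difference was called. Their summed level ranged from 86.7 to 363 CPM in TG and from 147 to 300 CPM in WT at 6 h, and from 39.2 to 414 CPM in TG and from 21.2 to 256 CPM in WT at 1 h, so the groups overlapped. Their part in the 1 h changes was not tested. The 6 preadipocyte and fibroblast markers had medians of 0.01 at 6 h and 0.27 at 1 h, with no called difference. The 7 adipocyte markers had medians of -0.01 and 0.03, the 9 macrophage markers 0.08 and 0.13, and no difference was called in either list. The 7 endothelial markers had medians of 0.08 at 6 h and 0.09 at 1 h, with 5 above 0 and 2 called lower at 6 h. Tek, the only one with a called difference, was late-only and lower (-0.55 and 0.09). Among the 2 lymphocyte markers tested Ms4a1, a B cell gene, was late-only and lower (-2.80 and 0.61). Ms4a1 lost that class without the 10 libraries with transcripts of other organs (1 h change -0.60, adjusted p of the difference 0.568). The summed level of 5 skeletal muscle markers ranged from 71.7 to 142 CPM in TG and from 26.2 to 59.5 CPM in WT at 6 h, with no overlap, and from 8.67 to 73.9 CPM in TG and from 14.3 to 52.4 CPM in WT at 1 h. Acta1, the muscle actin gene and the 1 member tested, was higher in TG at 6 h (1.26 ± 0.25, adjusted p = 0.00528), without a called difference. The 5 erythroid markers were all above 0 at 6 h (median 0.39) and 2 were at 1 h (median -0.0073), none called. The part of muscle and blood transcripts in the 6 h changes was not tested.

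Because each late-only call used the 1 h data, the 1 h levels of the 6 h genes were read without the class. Of the 958 genes higher in TG at 6 h, 643 (67.1%) had an estimate above 0 at 1 h, where 53.5% of all genes did. Of the 1013 genes lower at 6 h, 560 (55.3%) were above 0 at 1 h. At an unadjusted p of 0.05 at 1 h, 64 of the genes higher at 6 h lay above 0 (6.68%) and 8 below (0.835%), against 2.28% and 2.29% of all genes. The genes lower at 6 h split into 35 above (3.46%) and 30 below (2.96%). Averaged per library relative to the WT mean of the time, the 958 genes stood at 0.60 to 0.73 in TG and -0.05 to 0.05 in WT at 6 h, on the log2 scale. At 1 h they stood at 0.014 to 0.13 in TG (median 0.084) and at -0.05 to 0.08 in WT (median -0.011), with overlap. The 1013 genes stood at -0.70 to -0.60 in TG and -0.06 to 0.04 in WT at 6 h, and at -0.05 to 0.17 in TG and -0.06 to 0.03 in WT at 1 h, where the groups overlapped. Across genes the changes at the 2 times had a Pearson correlation of 0.30 over 13022 genes and 0.192 over the 1971 genes called at 6 h, as a description of genes that share libraries.

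**Figure D5:**
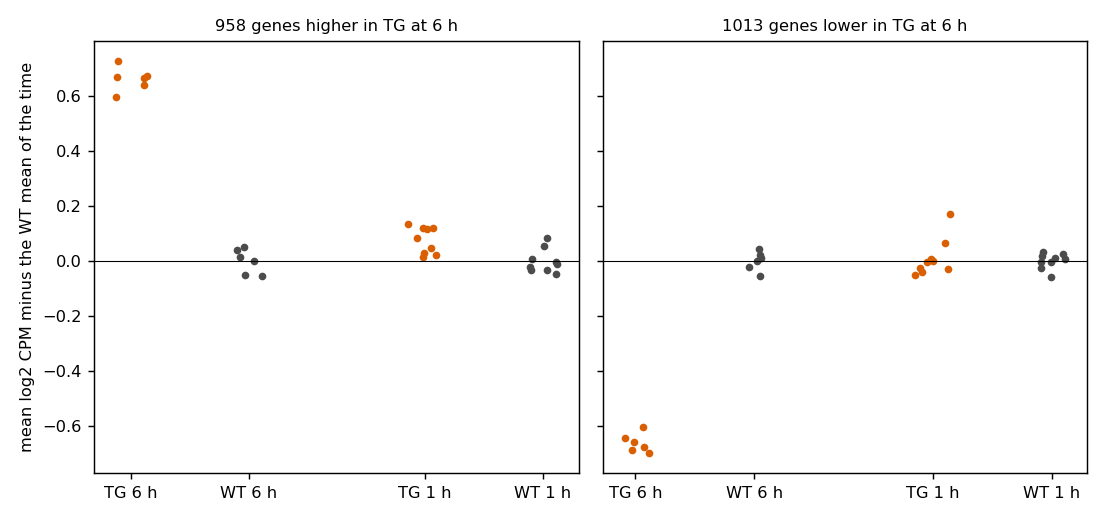
Mean log2 CPM of the 958 genes higher (left) and the 1013 genes lower (right) in TG at 6 h, per library, minus the WT mean of the same time (TG orange, WT grey, 6 h left of 1 h). At 1 h TG libraries lie between 0.014 and 0.13 for the genes higher at 6 h and spread around 0 for those lower at 6 h.

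The wider standard errors at 1 h limit what the absence of a call means. Of the 1971 genes called at 6 h, 413 had a 1 h interval that held both 0 and their 6 h change, so 1 h could place them at neither. With the 6 h counts thinned to the median 1 h total, 1068 genes were called at 6 h and 7 at 1 h. In that setting 391 differences and 362 late-only genes were called. Of the 548 genes with a called difference, 361 had estimates of opposite sign at the 2 times. For 59 of them both estimates had an unadjusted p under 0.05, with 45 higher in TG at 1 h and lower at 6 h, and 14 the other way. Over all 13022 genes, 50.6% had estimates of the same sign. A called difference selects for opposite signs by itself, so these counts describe the selected genes and do not test a reversal.

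The promoters of the genes that moved are given for the sustained genes and for late-only genes that share a motif. RefSeq promoters (GRCm38.p6, from 250 bases before to 50 bases after the start) matched 9259 of the 13022 genes, 155 of the 227 late-only higher genes, 168 of the 284 late-only lower genes and 3 of the 6 sustained genes. Searched on both strands were ACANNNTGT, the spaced core of the glucocorticoid receptor motif, GTAAACA, a forkhead motif of FOXO factors, TGACGTCA, the cyclic AMP response element, and CACGTG, the E-box of clock and related factors. ACANNNTGT occurred in 16 of 155 late-only higher promoters (10.3%) and 4 of 168 late-only lower promoters (2.38%), against 365 of all 9259 (3.94%). GTAAACA occurred in 1.29% and 3.57% of the late-only higher and lower promoters, against 2.46% of all. TGACGTCA occurred in 1.94% and 0%, against 3.28%, and CACGTG in 7.74% and 9.52%, against 10.3%. Base composition was not matched, and a motif is not a site. The sequences run 5′ to 3′ on the gene's strand, with motif matches in capitals. The promoters are those of Ddit4 (chr10:59951721-59952020, minus strand), Gadd45g (chr13:51846425-51846724, plus strand) and Depp1 (chr6:116650434-116650733, plus strand), and of the late-only genes Phf11c (chr14:59393463-59393762, minus strand), Mt1 (chr8:94178839-94179138, plus strand) and Glul (chr1:153899679-153899978, plus strand). Mt1, a metallothionein gene, and Glul, glutamine synthetase, were picked after their values were seen.
Ddit4: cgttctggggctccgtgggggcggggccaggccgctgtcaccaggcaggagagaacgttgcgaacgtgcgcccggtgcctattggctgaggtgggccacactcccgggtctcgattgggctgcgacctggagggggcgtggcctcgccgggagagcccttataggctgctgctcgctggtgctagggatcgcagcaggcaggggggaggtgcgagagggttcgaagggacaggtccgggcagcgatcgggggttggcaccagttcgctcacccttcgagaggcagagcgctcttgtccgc
Gadd45g: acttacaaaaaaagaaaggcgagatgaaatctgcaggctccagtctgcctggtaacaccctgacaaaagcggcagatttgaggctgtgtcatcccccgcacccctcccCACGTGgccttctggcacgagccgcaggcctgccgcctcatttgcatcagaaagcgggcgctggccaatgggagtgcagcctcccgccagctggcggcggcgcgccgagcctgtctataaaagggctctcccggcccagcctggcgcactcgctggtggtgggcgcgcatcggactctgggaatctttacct
Depp1: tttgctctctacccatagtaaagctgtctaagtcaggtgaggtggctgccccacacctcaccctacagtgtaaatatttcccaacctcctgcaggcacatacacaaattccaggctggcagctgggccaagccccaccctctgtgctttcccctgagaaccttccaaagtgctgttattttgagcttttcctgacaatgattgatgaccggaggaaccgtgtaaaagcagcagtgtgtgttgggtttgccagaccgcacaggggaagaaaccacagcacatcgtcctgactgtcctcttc
Phf11c: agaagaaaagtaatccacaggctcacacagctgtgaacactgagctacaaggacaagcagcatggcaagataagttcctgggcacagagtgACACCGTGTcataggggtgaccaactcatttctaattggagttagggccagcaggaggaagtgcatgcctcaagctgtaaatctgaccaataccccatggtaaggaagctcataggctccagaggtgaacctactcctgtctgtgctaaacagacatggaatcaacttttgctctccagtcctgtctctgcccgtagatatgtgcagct
Mt1: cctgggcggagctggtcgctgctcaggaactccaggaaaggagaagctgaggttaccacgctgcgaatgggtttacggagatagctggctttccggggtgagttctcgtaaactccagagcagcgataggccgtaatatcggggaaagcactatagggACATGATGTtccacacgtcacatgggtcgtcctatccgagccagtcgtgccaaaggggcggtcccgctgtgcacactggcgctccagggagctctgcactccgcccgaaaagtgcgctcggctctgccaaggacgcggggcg
Glul: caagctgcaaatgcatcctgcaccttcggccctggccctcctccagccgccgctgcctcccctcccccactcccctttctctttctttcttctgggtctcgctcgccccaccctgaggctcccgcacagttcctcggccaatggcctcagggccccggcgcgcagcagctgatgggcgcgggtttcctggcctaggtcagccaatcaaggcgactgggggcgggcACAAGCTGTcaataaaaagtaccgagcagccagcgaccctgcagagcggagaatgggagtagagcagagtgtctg
Of the 3 sustained promoters, that of Gadd45g held CACGTG and the others none of the 4 motifs. Those of Phf11c, Mt1 and Glul each held ACANNNTGT because they were chosen from the late-only higher promoters with that motif. Mt1 had log2 changes of 2.21 at 6 h and 0.34 at 1 h, and Glul had 0.74 and 0.14, and both were late-only.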

How the data were processed

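Poly(A) 3′ end libraries (QuantSeq FWD) of fat were prepared with a kit that carries unique molecular identifiers at 1 h and with the standard kit at 6 h, per the labels' protocols. The authors deposited raw counts per gene, in 1 table for each time and 1 for quadriceps. The submitters' processing notes name bcl2fastq 2.20.0.422, cutadapt 1.18, UMI-tools 1.1.2 and STAR 2.7.10 and the builds GRCm38 and GRCm39, with no role or order, and the counting program is not given in the sources used here. Gene identifiers without version joined the fat tables on 52338 genes, which held 98.9% of the gene counts at 1 h. Rows that name no mouse gene (5 at 1 h and 121 at 6 h) were left out, and gene rows held on average 99.8% of the counts at 6 h and 65.3% at 1 h. Positions are those of GENCODE vM21 on GRCm38.

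Counts were filtered by expression over the 4 groups, which left 13022 genes, and scaled with TMM. In edgeR 4.0.16 (R 4.3.3), robust quasi-likelihood fits tested the difference of the genotype changes in a joint fit of the 4 groups and the change at each time in a fit of that time alone, with Benjamini-Hochberg adjustment and a threshold of 0.05. Changes are log2 of TG over WT with standard error and 95% interval. Alternatives used DESeq2 1.42.0, limma 3.58.1, other scalings and filters, a replicate block, thinned counts and fits without single libraries. The fits were tested on simulated data. Depth limits cover counting error only.

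Genes named are all sustained and early-only genes, the 8 late-only genes per direction and the 8 genes larger at 1 h with the smallest p of the difference (mean of at least 5 CPM, no predicted model), up to 3 members of each list with a called difference, and a fixed set that includes Ddit4, Egr1, Fkbp5, Slc2a4, Lep and Adipoq. Not every list member so chosen is described above. The 24 gene lists of programmes and 11 of markers, the genes of that set and the comparison itself were chosen with earlier results of these data known.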

Additional observations from a re-analysis of the deposited data

Results flagged for a closer look

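The genotype change differed between 6 h and 1 h for 548 genes by the test of the difference itself. Among the genes called at 1 h, the difference was called for Ddit4 (1.55), Gadd45g (1.40) and Gm44829 (-0.80), as log2 change at 6 h minus that at 1 h.

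Single libraries stood apart from the others of their group in 17 of 72 groups of values examined by Dixon's test at 95%, where chance alone flags about 1 in 20. WT replicate 3 at 6 h was high for both Ddit4 (101 CPM) and Gadd45g (80.5 CPM), and TG replicate 2 at 1 h was high for Gadd45g (117 CPM). Liver transcripts were high in TG replicate 2 at 6 h (1722 CPM summed), TG replicate 3 at 1 h (8673 CPM) and WT replicate 7 at 1 h (2089 CPM). Epididymal duct transcripts were high in WT replicate 1 at 6 h (20.4 CPM) and WT replicate 9 at 1 h (246 CPM). TG replicate 1 at 6 h had low adipocyte markers (58030 CPM) with high macrophage (2592 CPM) and neutrophil (101 CPM) markers. Preadipocyte and fibroblast markers stood apart in TG replicate 4 at 6 h (3447 CPM), TG replicate 9 at 1 h (3981 CPM) and WT replicate 9 at 1 h (2457 CPM), and macrophage markers in TG replicate 9 at 1 h (2056 CPM). Skeletal muscle markers were high in TG replicate 3 (73.9 CPM) and WT replicate 5 (52.4 CPM) at 1 h. The part of these libraries in the results was not tested beyond the fits that leave them out.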

How the results depend on the processing

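Without the 10 libraries with transcripts of other organs, the difference was called for 319 genes, 1 gene was called at 1 h, 1 was sustained, 294 were late-only (251 of them among the 511) and 0 were early-only, with fewer samples in every test at 1 h. DESeq2 called 22 genes at 1 h, 12 sustained, 7 early-only and 1 called in opposite directions (Tnrc18), and included all 548 differences and 507 of the late-only genes. Genotype changes from the joint fit of the 4 groups gave 12 calls at 1 h, 1201 at 6 h and 2 early-only genes. The 1 h libraries whose number leaves 3 when divided by 8, 6 per genotype, gave 3 calls at 1 h, 3 sustained and 0 early-only genes. An adjusted p of 0.1 gave 14 calls at 1 h, 11 sustained and 2 early-only genes. Limma voom gave 2 early-only genes, thinned counts 1068 calls at 6 h and a 1.5-fold minimum 937. With the replicate number as a block there were 4 calls at 1 h and 3 sustained genes, 557 differences and 1785 calls at 6 h. Correlations of same-numbered libraries ran from -0.31 to 0.28 at 1 h and from -0.10 to 0.08 at 6 h. Between different numbers the median was 0.008 at 1 h and 0.003 at 6 h. Replicates 1, 5 and 9 at 1 h and replicate 6 at 6 h correlated best with their own number. These correlations cannot show whether same-numbered libraries were paired, and the labels give only a number. The cause of these shifts was not tested.

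Leaving out 1 library gave 439 (without WT replicate 1 at 6 h) to 610 differences, 3 to 12 calls at 1 h, 1582 to 1982 calls at 6 h, 3 to 10 sustained, 413 to 561 late-only and 0 to 2 early-only genes. The counts not named above stayed within 1.5 times those reported. The share of called differences above 0 was 44.5% and ran from 42.3% to 48.7% over the other settings. Of 89 values of 75 named genes under 13 settings, 109 missed the threshold that they passed in the reported fit and 1 passed it newly, and with 1 library left out 180 missed it. Signs changed only for estimates near 0 that were not called. The Slc2a4 difference was -0.00178 with scaling within each time, -0.0066 with the replicate block, -0.216 without the 10 libraries, -0.0488 with the library numbers above and -0.0465 to 0.0682 with 1 library left out. The 4632418H02Rik difference was -0.203 without the 10 libraries and -0.0738 to 0.156 with 1 library left out, and the 6 h change of Gm44829 was -0.0341 to 0.136. The median standard error of a gene's log2 change was 0.163 at 1 h and 0.119 at 6 h, and the part of depth in the number of calls was not tested beyond the thinned counts.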

Other observations

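Of the 12 genes lower in TG at 1 h with a called difference and the larger change at 1 h, 6 are known from cell division: Plk1, Hmmr, Ccna2, Cdca8, Cdca3 and Dbf4. They were picked out after their values were seen, so no test is given. The log2 change of Ccna2, a cyclin of DNA replication, was 0.73 at 6 h and -0.96 at 1 h. Cdca8, a subunit of the complex that controls chromosome attachment, had 0.20 and -1.17. Hmmr, a spindle protein, had 0.91 and -1.04, and Dbf4, which activates a kinase at replication origins, 0.50 and -0.50. With edgeR none was called at either time, while DESeq2 called Ccna2 (adjusted p = 0.0374) and Cdca8 (adjusted p = 0.0307) at 1 h. Cdca3 and Hmmr averaged 3.28 and 3.46 CPM over the libraries, near the counting limit at 1 h.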
